A study of Mus musculus with 10 samples.

Results

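The background of 2 immunoprecipitation reagents was described from the 4 control ChIP-seq lists of the study, 2 from Tet2 knockout and 2 from parental mouse embryonic stem (ES) cells. Overlapping peaks of these lists (1 bp or more) on chromosomes 1 to 19, X and Y were joined into 44226 control regions, against 79350 regions when all 8 lists of the study were merged. A region with at least 1 knockout and at least 1 parental peak was called shared, and the others were called antibody-only or resin-only after the reagent that gave them. Of the 44226 regions, 3689 (8.34%) were shared, 7859 (17.8%) were antibody-only and 32678 (73.9%) were resin-only.

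The knockout libraries carry the genotype Tet2-/- and were precipitated with a rabbit polyclonal antibody raised against the N-terminal part of TET2. The parental libraries carry the genotype Tet2fl/fl (floxed Tet2) with no tag, and were precipitated with FLAG M2 affinity gel, a resin that holds an antibody to the FLAG peptide. The reagent and the Tet2 genotype therefore change together between the knockout and the parental lists, and cannot be told apart from these 4 lists. Which part of Tet2 the knockout removes is not given in the sources used here. The target lists, which served as a readout, came from wild-type Tet2fl/fl cells with the same TET2 antibody (2 libraries) and from Tet2fl/fl cells whose own Tet2 locus makes 2x-Flag tagged TET2, with the FLAG gel (2 libraries). All groups were grown on gelatin-coated plates in serum with LIF, the GSK-3 inhibitor CHIR99021 and the MEK1 inhibitor PD0325901, and were fixed with DSG and formaldehyde. Nothing in the labels ties the 2 replicates of a group to separate cultures, and their spread may be technical. An input library and an IgG library of the study were not analysed here.

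TET2 is an enzyme that oxidises 5-methylcytosine, a step towards DNA demethylation. In ChIP-seq an antibody also carries down chromatin that lacks its target, and a library from cells without the epitope shows where this happens with that reagent. Open promoters of active genes are a well-known place for such signal. Several families named below are generally held to be silent in ES cells, though neither expression nor DNA methylation of these cells was measured here. Germline and meiosis genes have CpG-rich promoters that DNA methylation and repressor complexes containing MGA and MAX can keep off. Many neuronal genes carry a long element bound by the repressor REST. MGA and MAX belong to the factors that bind the E-box letters CACGTG.

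The first promoter sequences printed here are those of germline genes under strong knockout peaks, since CACGTG was commoner in promoters with knockout peaks than in those with parental peaks. Each window runs 5′ to 3′ along its gene, from 250 bases before to 50 bases after the start, from RefSeq on GRCm38.p6 (the assembly of mm10), and capitals mark CACGTG. Sycp3 (chr10:88459337-88459636, plus strand), Hormad1 (chr3:95559427-95559726, plus strand) and Ddx4 (chr13:112652261-112652560, minus strand) overlap shared regions. Mael (chr1:166238695-166238994, minus strand) overlaps an antibody-only region and was chosen after its values were seen.
Sycp3: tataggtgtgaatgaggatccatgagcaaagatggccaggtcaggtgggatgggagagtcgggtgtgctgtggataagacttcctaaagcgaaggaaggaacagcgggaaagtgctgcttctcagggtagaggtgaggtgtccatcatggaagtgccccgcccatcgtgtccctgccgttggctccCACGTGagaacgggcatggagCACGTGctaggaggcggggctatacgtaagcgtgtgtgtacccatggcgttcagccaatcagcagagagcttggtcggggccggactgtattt
Hormad1: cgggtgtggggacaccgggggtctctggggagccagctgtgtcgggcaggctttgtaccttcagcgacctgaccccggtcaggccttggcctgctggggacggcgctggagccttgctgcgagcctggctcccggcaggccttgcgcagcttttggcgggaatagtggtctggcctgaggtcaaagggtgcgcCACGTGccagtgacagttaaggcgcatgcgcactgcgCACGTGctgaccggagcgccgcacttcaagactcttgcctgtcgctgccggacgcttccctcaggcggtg
Ddx4: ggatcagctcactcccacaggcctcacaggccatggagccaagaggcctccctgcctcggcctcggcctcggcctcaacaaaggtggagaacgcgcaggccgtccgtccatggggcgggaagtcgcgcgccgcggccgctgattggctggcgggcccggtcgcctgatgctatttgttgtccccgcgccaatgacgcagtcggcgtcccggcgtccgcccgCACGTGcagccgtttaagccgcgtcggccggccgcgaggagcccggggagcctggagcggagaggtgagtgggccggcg
Mael: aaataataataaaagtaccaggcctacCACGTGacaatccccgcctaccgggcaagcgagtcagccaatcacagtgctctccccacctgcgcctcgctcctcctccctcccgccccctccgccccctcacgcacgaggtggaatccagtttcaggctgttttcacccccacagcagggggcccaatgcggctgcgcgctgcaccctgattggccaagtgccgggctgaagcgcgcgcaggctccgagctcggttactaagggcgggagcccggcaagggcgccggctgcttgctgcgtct

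The next windows belong to genes under strong parental peaks and hold the letters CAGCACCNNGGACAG, a core of the element bound by REST, on either strand, in capitals. All 3 were chosen after their values were seen. Fbll1 (chr11:35798835-35799134, minus strand) and Ttc9b (chr7:27653674-27653973, plus strand) overlap resin-only regions, and Fam163b (chr2:27142428-27142727, minus strand) overlaps a shared region.
Fbll1: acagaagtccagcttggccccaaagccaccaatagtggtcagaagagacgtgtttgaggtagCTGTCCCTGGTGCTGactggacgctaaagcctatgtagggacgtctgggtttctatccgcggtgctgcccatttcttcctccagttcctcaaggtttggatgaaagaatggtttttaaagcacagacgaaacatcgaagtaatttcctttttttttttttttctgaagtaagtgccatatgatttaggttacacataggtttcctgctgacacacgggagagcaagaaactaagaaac
Ttc9b: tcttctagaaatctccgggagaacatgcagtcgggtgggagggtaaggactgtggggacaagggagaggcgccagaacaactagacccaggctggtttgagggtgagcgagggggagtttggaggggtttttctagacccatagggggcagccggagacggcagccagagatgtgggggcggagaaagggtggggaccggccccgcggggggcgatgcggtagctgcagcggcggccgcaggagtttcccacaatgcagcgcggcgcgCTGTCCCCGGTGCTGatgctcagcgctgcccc
Fam163b: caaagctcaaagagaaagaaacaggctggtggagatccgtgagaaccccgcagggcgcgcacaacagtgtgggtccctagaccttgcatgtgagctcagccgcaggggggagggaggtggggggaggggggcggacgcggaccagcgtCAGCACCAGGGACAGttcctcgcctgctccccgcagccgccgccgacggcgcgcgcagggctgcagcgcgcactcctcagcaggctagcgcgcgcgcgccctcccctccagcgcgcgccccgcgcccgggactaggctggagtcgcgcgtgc

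The 4 lists were of very unequal length. Knockout replicate 1 held 2259 peaks, knockout replicate 2 held 11696, parental replicate 1 held 36518 and parental replicate 2 held 10122. The ranges of the groups overlapped: the shorter parental list was below the longer knockout list. On the log2 scale the parental lists were higher by 1.90 (3.74-fold), with p = 0.667 in a two-sided exact permutation test over the 4 libraries, a design whose smallest p is 0.333. It was 0.72 without knockout replicate 1, 3.09 without knockout replicate 2, 0.98 without parental replicate 1 and 2.83 without parental replicate 2. Read depth is unknown, so a peak number cannot be read as an amount of background. The labelled cell type could be set only against where peaks lay: of 6 ES cell genes (Pou5f1, Nanog, Sox2, Klf4, Zfp42, Esrrb), 0 and 4 were nearest to a knockout peak within 10 kb and 6 and 5 to a parental peak, against 1, 3, 3 and 2 of 6 fibroblast genes. Over all protein-coding genes the shares were 7.76% and 30.5% for the knockout and 57.6% and 26.9% for the parental lists.

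**Figure D1:**
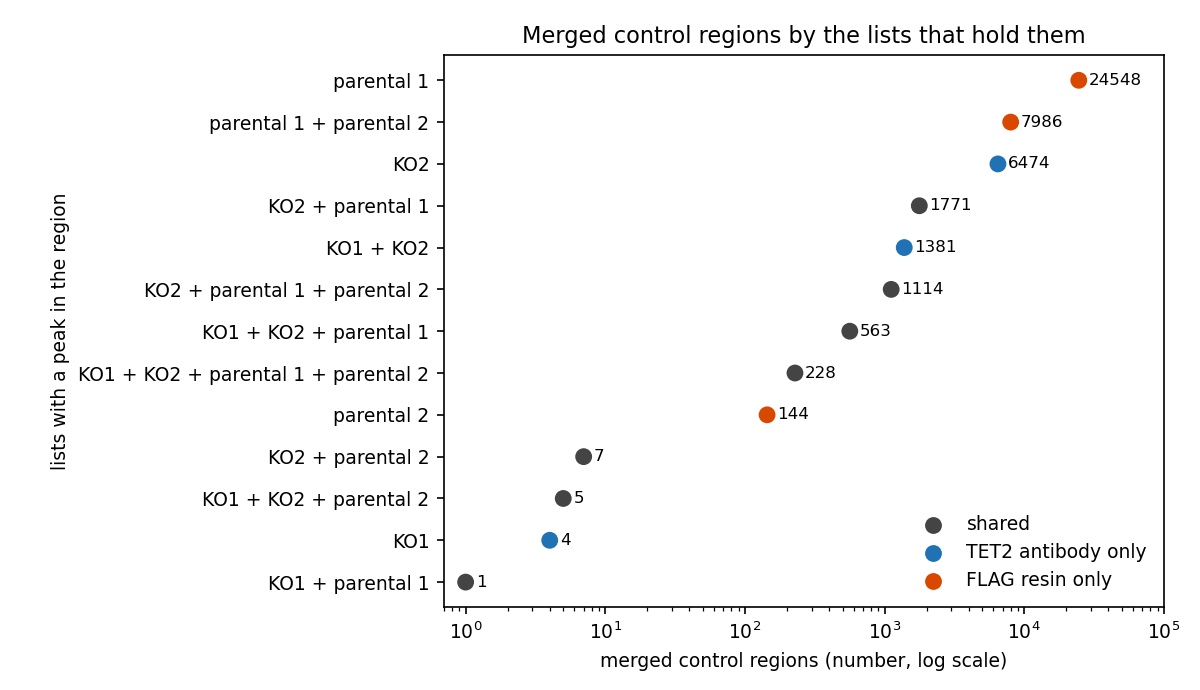
Number of merged control regions (log axis) for each combination of the 4 lists, coloured by class; KO1 and KO2 are the knockout replicates. Regions of parental replicate 1 alone (24548) outnumber all other combinations, and 228 regions have a peak in all 4 lists.

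Within a reagent the shorter list was nested in the longer one. In knockout replicate 1, 99.8% of peaks overlapped a peak of knockout replicate 2, and in parental replicate 2, 98.4% overlapped a peak of parental replicate 1. In the other direction the shares were 18.6% and 25.7%. Most regions thus rested on the longer list of a reagent: 24548 held a peak of parental replicate 1 alone and 6474 of knockout replicate 2 alone. Both lists of a reagent gave 7986 resin-only and 1381 antibody-only regions. Shared regions took 37.5% and 32.8% of the peaks of the knockout lists, and 10.8% and 15.8% of those of the parental lists, in replicate order.

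Fold enrichment (column 7 of each list, the authors' ratio of signal at the summit over a control track) ranked regions alike within a reagent and not across reagents. Over regions with a peak in both, Spearman's rho was 0.74 between the knockout lists (2177 regions) and 0.85 between the parental lists (9328 regions). The 4 pairs of a knockout with a parental list gave rho from -0.04 to 0.07, over 233 to 3676 regions. These are descriptions over regions, which are not independent replicates. When each list was reduced to its 2259 leading peaks by −log10 q, the length of the shortest list, 29 regions were shared, 2820 were antibody-only and 2393 resin-only. The leading peaks of the 2 reagents therefore lay at different places, and most of the 3689 shared regions came from lower-ranked peaks of at least 1 list. The number of shared regions was 678 without knockout replicate 2 and 1151 without parental replicate 1.

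Shared regions lay at gene ends far more often than regions of 1 reagent. Of shared regions, 71.6% were within 1 kb of either end of a protein-coding gene (95% exact binomial interval 70.1% to 73.1%, counting error only). The share was 29.7% (28.7% to 30.7%) of antibody-only and 29.9% (29.4% to 30.4%) of resin-only regions. The table used here gives a start for 17492 of 21887 protein-coding genes, so shares at starts are lower limits. Of all shared regions 62.8% were within 1 kb of a listed start, against 24.0% and 26.0%. A listed start lay under 42.3% of shared, 9.39% of antibody-only and 7.35% of resin-only regions. Gene bodies away from the ends held 15.2% of shared regions, 31.7% of antibody-only and 31.9% of resin-only regions, and 8.86%, 29.2% and 30.4% lay more than 10 kb from any protein-coding gene.

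The same difference appeared inside each list. In knockout replicate 1, 74.0% of peaks in shared regions were at gene ends, against 34.7% of its other peaks. The shares were 70.5% and 29.6% in knockout replicate 2, 71.1% and 29.8% in parental replicate 1, and 73.0% and 36.0% in parental replicate 2. All 4 lists moved the same way, by 39.6 ± 1.91 percentage points (SD, n = 4), with p = 0.125 in an exact sign-flip permutation test, the smallest that 4 lists allow. The lists are not independent here, since each shared region holds peaks of at least 1 list of each group, so the small SD is partly set by how the classes were made.

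**Figure D2:**
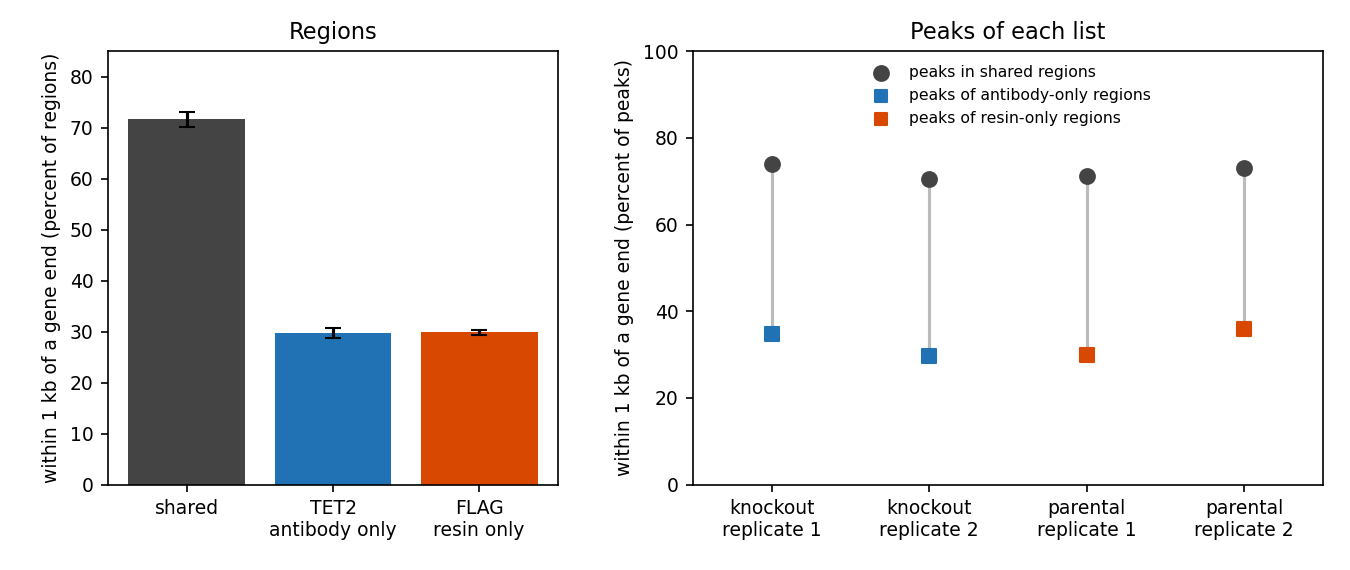
Left, percent of regions of each class within 1 kb of a protein-coding gene end, with 95% exact binomial intervals; right, the same share over peaks in each of the 4 lists, for peaks in shared regions (circles) and in regions of 1 reagent (squares). Shared regions stand at 71.6% and the other classes at 29.7% and 29.9%, and in every list the circle lies above the square.

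Over whole lists the gene-end share was 49.4% and 43.1% in the knockout lists and 34.3% and 41.8% in the parental lists. The groups did not overlap, and parental minus knockout was -8.21 percentage points (exact permutation p = 0.333, the smallest of this design). It was -5.02 points without knockout replicate 1 and -4.45 points without parental replicate 1. The difference was far wider among leading peaks: of the 2259 leading peaks, 49.4% and 43.5% of the knockout and 17.8% and 17.2% of the parental lists were at gene ends, a gap of -28.9 points (p = 0.333, exact permutation). Among regions merged from these leading peaks, 45.5% of antibody-only and 17.3% of resin-only regions were at gene ends, so the near-equal class values given above (29.7% and 29.9%) held only for lists at their deposited lengths.

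The position of a parental peak followed its fold enrichment, and that of a knockout peak hardly did. Each list was split by fold into 10 equal bins. In the lowest bin of parental replicate 2, 68.1% of peaks were at gene ends, and in its highest bin 17.7%. In parental replicate 1 the shares were 49.2% and 18.4%. The knockout lists went from 50.9% to 46.9% (replicate 1) and from 46.8% to 44.0% (replicate 2). The fall from the lowest to the highest bin was 30.8 and 50.4 points in the parental and 3.98 and 2.74 points in the knockout lists. The groups did not overlap, and differed by 37.3 points (p = 0.333, exact permutation, the smallest of this design). The peaks of highest fold in the parental lists were thus mostly outside gene ends, while those of the knockout lists were at gene ends about as often as their weaker peaks.

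**Figure D3:**
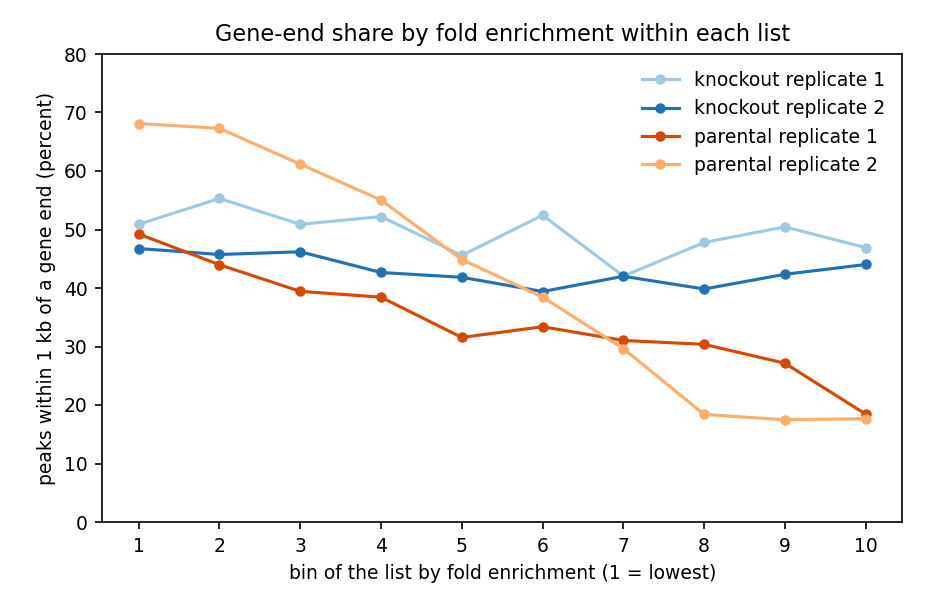
Percent of peaks within 1 kb of a protein-coding gene end in each of 10 equal bins of a list, ordered by fold enrichment within that list; each line is 1 library. Both parental lines fall, to 18.4% and 17.7% in the highest bin, and both knockout lines stay between 39.4% and 55.3%.

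Fold enrichment and width separated shared from other peaks less. The median log2 fold of peaks in shared regions minus that of a list's other peaks was 0.00 and -0.02 in the knockout lists and -0.11 and -0.31 in the parental lists (mean -0.11 ± 0.14 SD, n = 4, exact sign-flip permutation p = 0.25). Among the leading peaks alone the mean difference was reversed, at 0.24 (p = 0.125, exact permutation), with 29 shared regions behind it. Peaks in shared regions were wider in all 4 lists, by 0.19, 0.30, 0.84 and 0.16 on the log2 scale (mean 0.37 ± 0.32 SD, n = 4, exact sign-flip permutation p = 0.125). Their median widths were 201, 263, 346 and 233 bp, against 176, 213, 193 and 209 bp for the other peaks. The merged regions had median widths of 539 bp (shared), 213 bp (antibody-only) and 193 bp (resin-only), where a shared region is wider in part by construction, being merged from more peaks.

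Around gene starts the summits of the knockout and the parental lists lay at different places. Of summits within 1 kb of an annotated start, 51.4% and 53.6% lay downstream of it in the knockout lists and 74.6% and 77.6% in the parental lists. The wild-type lists, made with the same antibody as the knockout lists, had 51.3% and 46.8%, and the FLAG-TET2 lists 65.1% and 67.8%. Neither the control groups nor the reagents overlapped. The difference was -23.6 points over the 4 control lists (p = 0.333, exact permutation). Over all 8 lists it was -20.5 points (exact permutation p = 0.0556). Labels were permuted within control and within target lists, and this p is the smallest that those 36 arrangements allow. Among the leading peaks of each list the difference narrowed to -9.69 points over the controls and -17.3 points over all 8 lists. The shares were then 51.4% and 48.2% in the knockout and 59.4% and 59.6% in the parental lists. The wild-type lists fell to 32.6% and 31.9%, below the knockout lists of the same antibody, and the FLAG-TET2 lists had 58.1% and 56.1%. The size of the control difference therefore held only at the deposited lengths. In shared regions, where both reagents had peaks, median summits were still at 17.5 and 23 bp in the knockout lists and at 137 and 155 bp downstream in the parental lists.

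**Figure D4:**
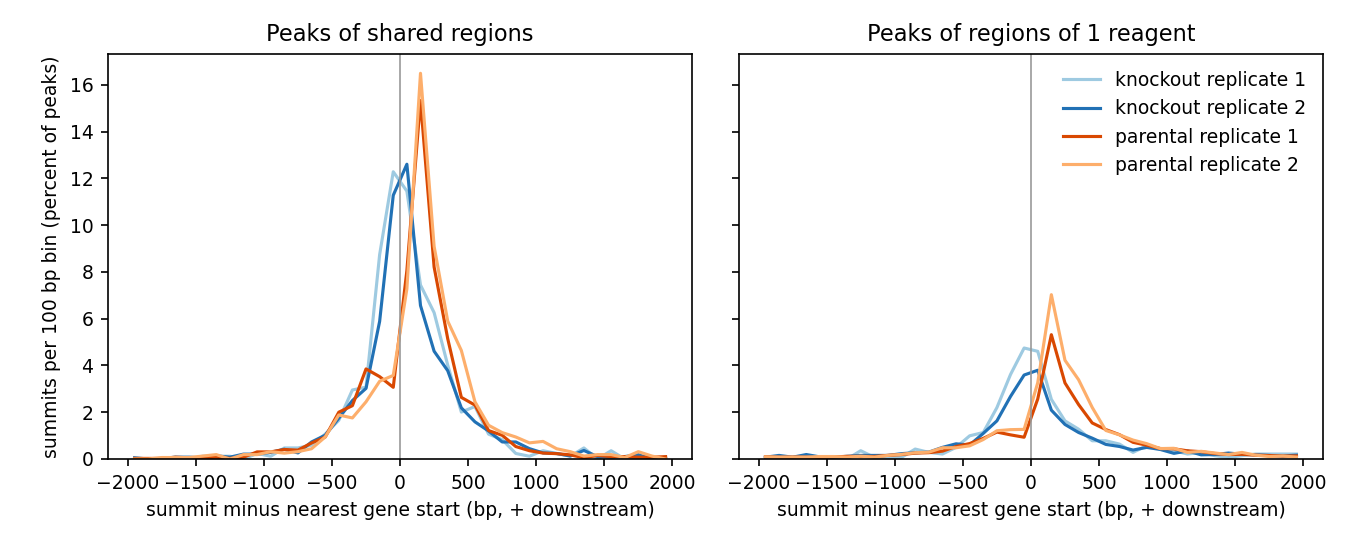
Summit position relative to the nearest annotated gene start, as percent of a list's peaks in 100 bp bins, for peaks of shared regions (left) and of regions of 1 reagent (right). Knockout summits centre on the start and parental summits lie downstream of it in both panels.

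Nearly every shared region also held a target peak. All 4 target lists had a peak in 62.5% of shared regions, against 13.4% of antibody-only and 12.1% of resin-only regions, and no target list had one in 0.759%, 29.4% and 22.3%. With 200 bp summit windows the shares in all 4 were 40.0%, 11.02% and 5.47%, and without parental replicate 1 the antibody-only share was 22.9%. Each target list held peaks in a larger share of the regions of its own reagent than of those of the other reagent. Wild-type replicates 1 and 2 had peaks in 67.3% and 39.3% of antibody-only regions, against 27.9% and 14.7% of resin-only regions. FLAG-TET2 replicates 1 and 2 had peaks in 76.2% and 40.3% of resin-only regions, against 38.5% and 15.8% of antibody-only regions. Within the antibody-only class, wild-type replicate 2 (39.3%) and FLAG-TET2 replicate 1 (38.5%) were therefore nearly alike. Of the 228 regions with peaks in all 4 control lists, 90.4% had peaks in all 4 target lists and 78.5% were at gene ends.

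The leading regions of all 4 lists were ranked by mean percentile of fold within each list. Folds of different lists have their own control scaling and were not compared. Tmem179 had a region over the gene start (chr12:112510669-112511447), with folds of 12.3 and 13.6 in the knockout lists and 62.8 and 36.7 in the parental lists. Celf6, an RNA-binding protein of neurons (chr9:59578228-59578652), had folds of 10.0, 16.0, 63.2 and 42.6 over its start, in the same order. Scg3, a secretory granule protein, also had its start covered (8.90, 15.0, 58.2 and 34.3). Cbln4, Frmd5, Shox2, Cacna1b (a calcium channel), Crh (corticotropin-releasing hormone) and Ttc32 were also among these regions. Ttc32 (folds 18.5, 22.8, 13.5 and 10.6) and Frmd5 were the 2 of those named that did not have a parental fold above 30.

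The leading regions found in both parental and no knockout list were chosen by the same percentile of fold. The first printed here, 4.47 kb from Smim17 (chr7:6409941-6410729), had folds of 97.5 and 78.6. A region in the body of Trappc9 (chr15:72689461-72690360) had 97.5 and 78.3, and one at an end of Scrt1, a neuronal transcriptional repressor (chr15:76521576-76522885), had 96.7 and 77.6. A region 0.840 kb from Vstm2l (chr2:157912927-157913813) had 97.5 and 77.6. The regions nearest to Gm51483, Immp2l, Nphp4, Scgb2b21 and Kcnk9 lay between 19.7 and 1017 kb from the gene, with folds of 95.1 to 97.5 and 76.4 to 77.9. Of these 9, 2 (Vstm2l and Scrt1) were at a gene end. Several of these genes have no start in the table used here, so distances to a start are not given.

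In both knockout and no parental list, the leading region lay within Rfxank, a subunit of the RFX complex of MHC class II promoters (chr8:70135761-70136138), with folds of 40.3 and 52.7. Zfp541, a zinc finger gene of meiotic germ cells, followed with a region at a gene end (chr7:16061362-16062126) and folds of 36.6 and 43.1. Padi4, a peptidylarginine deiminase, had folds of 28.2 and 51.2 at its start (chr4:140773470-140773896). The others were nearest to Epha2, Nmnat2, Cox16, Dtx1, Oas2, Lipf and Pgpep1, with folds of 25.7 to 33.2 and 32.4 to 45.0. Of the 10, 2 (Zfp541 and Padi4) were at a gene end.

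Germline and meiosis genes stood out in the antibody background. Of 18 such genes, 13 and 15 were the nearest gene of a knockout peak within 10 kb, against 6 and 1 for the parental lists. Over all protein-coding genes the shares were 7.76% and 30.5% for the knockout lists and 57.6% and 26.9% for the parental lists, and parental replicate 1, with the most peaks, held fewer germline genes than either knockout list. In percent of the list, the knockout lists gave 72.2% and 83.3% and the parental lists 33.3% and 5.56%, with no overlap. The difference was 58.3 points (p = 0.333, exact permutation). The wild-type lists, from cells that have TET2, gave 88.9% and 83.3%, and the FLAG-TET2 lists 55.6% and 16.7%, where 61.2%, 43%, 67.6% and 49.2% of all genes had a peak. Over the 8 lists the antibody was higher by 54.2 points (exact permutation p = 0.0556, 0.0778 after Benjamini-Hochberg adjustment over 7 measures). The unadjusted value is the smallest that this design allows. These comparisons were chosen after the data were seen, and the adjustment, here and below, does not cover that choice. Among the 2259 leading peaks the counts were 13 and 14 in the knockout and 1 and 1 in the parental lists, where 7.76%, 7.65%, 6.02% and 6.04% of all genes had a peak. In percent of the list these were 72.2%, 77.8%, 5.56% and 5.56%. The wild-type lists then gave 38.9% and 50%, below the knockout lists of the same antibody, and the FLAG-TET2 lists 5.56% and 0%.

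The germline genes near knockout peaks span several steps of germ cell development. Stk31, a kinase of spermatogenic cells, had folds of 19.5 and 27.1 in the knockout lists and 4.64 in parental replicate 1. Tdrd1, a tudor protein of the piRNA pathway (chr19:56826047-56826556), had 19.6 and 25.1 and no parental peak. Taf7l, a germ cell subunit of TFIID on X (chrX:134474971-134475591), had 18.5 and 27.5, again with no parental peak. Hormad1, of the meiotic chromosome axis, had 17.5 and 22.6 in the knockout lists and 4.86 in parental replicate 1. Sycp1 and Sycp3, of the synaptonemal complex, had knockout folds of 11.4 and 20.8, and of 12.3 and 17.9, with 6.19 and 5.87 in parental replicate 1. Ddx4, the germ cell helicase, had 13.9 and 17.9 at its promoter and 7.10 in parental replicate 1, and a separate resin-only region inside the gene (chr13:112606882-112607162) with 23.1 and 15.1. Mael, Slc25a31, Mov10l1, Piwil2 and Sycp2 had peaks in both knockout lists and in neither parental list, with folds of 7.54 to 14.0 and 11.9 to 19.6. No shared region of this list had a peak in parental replicate 2. Asz1, Dpep3 and Rhox9 were nearest to no control region within 10 kb.

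**Figure D5:**
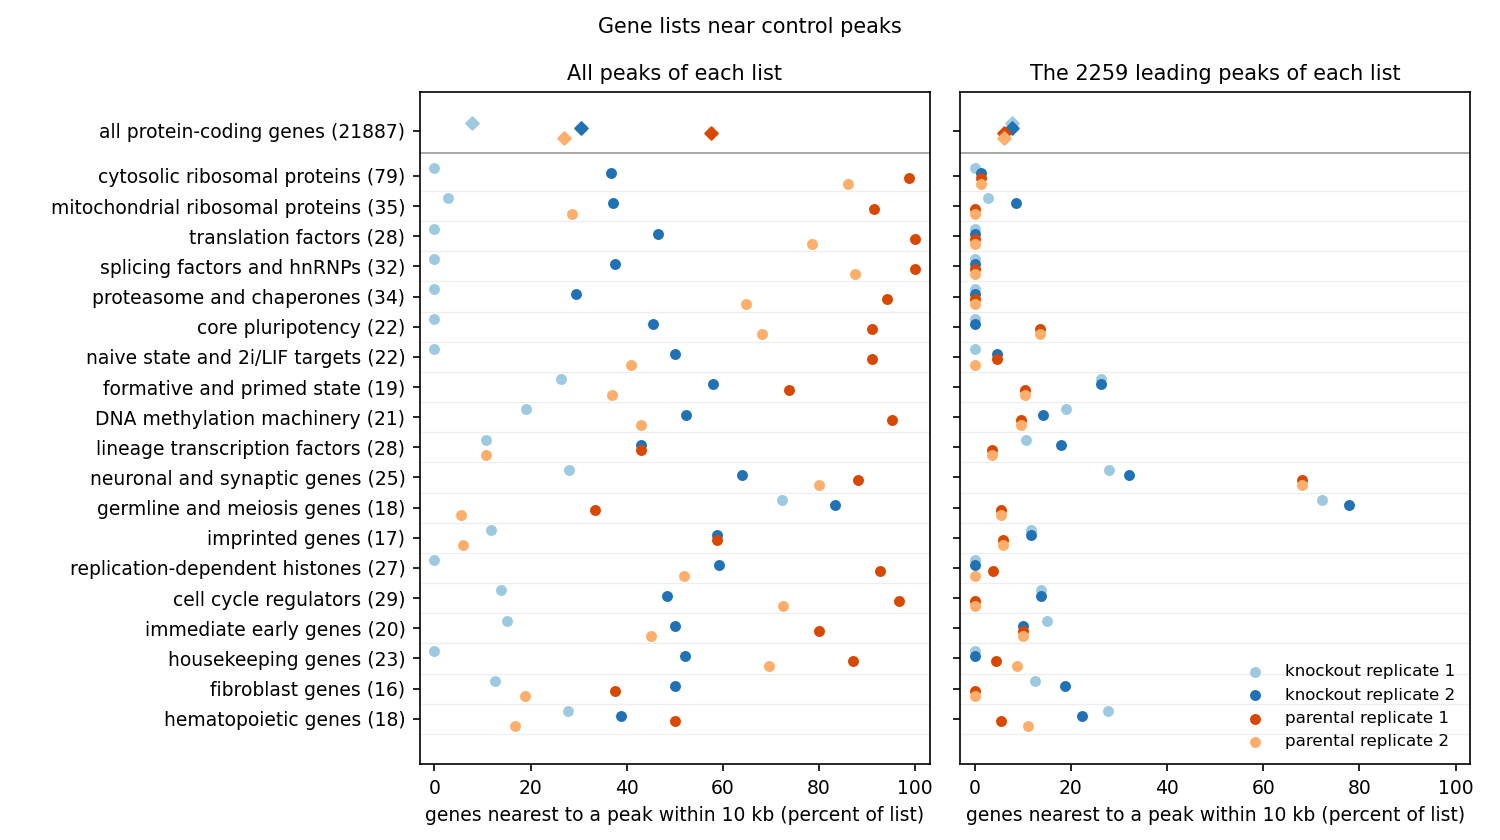
Percent of each of 19 gene lists (number of genes in brackets) that is the nearest protein-coding gene of a peak within 10 kb, in each control list, for all peaks (left) and for the 2259 leading peaks (right); diamonds give the share of all protein-coding genes. Among leading peaks the germline list stands out in both knockout lists and the neuronal list in both parental lists.

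Neuronal genes stood out in the parental lists once the lists had equal length. Of 22 neuronal and synaptic genes, leaving out Cbln4, Celf6 and Scg3, which were already known to lead, 4 and 13 were nearest to a knockout peak and 19 and 17 to a parental peak. These are 18.2%, 59.1%, 86.4% and 77.3% of the 22, above the shares of all genes (7.76%, 30.5%, 57.6% and 26.9%) in all 4 lists. Among the leading 2259 peaks these counts were 4 and 5 against 14 and 14, and 3 and 2 in the wild-type against 13 and 13 in the FLAG-TET2 lists. The control counts were 18.2%, 22.7%, 63.6% and 63.6% of the 22, beside 7.76%, 7.65%, 6.02% and 6.04% of all genes. All 4 control lists, knockout included, were thus above the share of all genes, which is not given for the shortened target lists. The difference in leading peaks was -43.2 points over the controls (p = 0.333, exact permutation) and -45.5 points over all 8 lists (exact permutation p = 0.0556, adjusted 0.0649), and neither overlapped. Over all peaks the 8 lists overlapped by reagent (p = 0.2222, exact permutation). Snap25, of the synaptic vesicle fusion complex, had folds of 93.2 and 70.8 in the parental lists at a gene end (chr2:136713770-136714523). Rbfox3, the splicing factor known as NeuN, had 93.2 and 70.2 in its gene body (chr11:118584637-118585454). Tubb3, a neuronal tubulin, had 69.0 and 52.2, and Gad1, which makes GABA, had 59.3 and 37.9. Stmn2, Chga, Gria2, Scg2 and Elavl3 had folds of 41.5 to 56.3 and 24.8 to 39.2. None of these 9 regions held a knockout peak. The knockout lists had antibody-only regions of their own too, as at Elavl4 (10.3 and 12.2).

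Ribosomal protein genes were near parental peaks more often than near knockout peaks. Of 79 cytosolic ribosomal protein genes, 0 and 29 were nearest to a knockout peak and 78 and 68 to a parental peak within 10 kb, where the shares of all genes were 7.76%, 30.5%, 57.6% and 26.9%. The wild-type lists had 66 and 43 and the FLAG-TET2 lists 77 and 77, where 61.2%, 43%, 67.6% and 49.2% of all genes had a peak. Neither the controls nor the reagents overlapped, with differences of -74.1 points over the controls (p = 0.333, exact permutation) and -51.3 points over the 8 lists (exact permutation p = 0.0556, adjusted 0.0778). The difference was lost among the 2259 leading peaks of each list by −log10 q, where the counts were 0, 1, 1 and 1 (p = 1.0, exact permutation). Of all genes, 7.76%, 7.65%, 6.02% and 6.04% were near such a leading peak. By class, 29 were near a shared region, 4 near an antibody-only and 73 near a resin-only region, where the shares of all genes were 14.2%, 19.2% and 51.9%. Rps20 (chr4:3834661-3836038) had folds of 18.9 and 9.76 in the parental lists and 6.42 in knockout replicate 2. Rps21 (chr2:180256311-180258292) had 16.3, 6.44 and 7.15 in the same order. Among resin-only regions, Rpl4 (chr9:64172388-64174705) had 22.0 and 12.5, Rpl19 had 17.8 and 8.58, and Rps3 had 8.85 and 7.55. Reads of ribosomal protein genes can come from near-identical pseudogene copies, whose part in these peaks was not tested.

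Other lists of genes expressed in most cells were counted in the same way, beside shares of 7.76%, 30.5%, 57.6% and 26.9% over all genes. Translation factors (28 genes) had 0, 13, 28 and 22 in knockout replicates 1 and 2 and parental replicates 1 and 2. Splicing factors and hnRNPs (32) had 0, 12, 32 and 28, proteasome and chaperone genes (34) had 0, 10, 32 and 22, and housekeeping genes (23) had 0, 12, 20 and 16. Of these 4 lists, at most 2 genes were near a leading peak in any control list. Eef1a1, the elongation factor that brings tRNA to the ribosome (chr9:78480359-78481741), had folds of 21.7 and 10.1 in the parental lists and 6.76 in knockout replicate 2. Srsf6, a splicing factor (chr2:162930931-162932439), had 19.3, 13.4 and 7.12, and Tfrc, the transferrin receptor (chr16:32608731-32609963), had 18.5, 12.9 and 7.58. Of 27 replication-dependent histone genes, 0, 16, 25 and 14 were near a peak, and of 35 mitochondrial ribosomal protein genes 1, 13, 32 and 10.

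Pluripotency genes were near parental peaks as well. Of 22 core pluripotency genes, 0 and 10 were near a knockout peak and 20 and 15 near a parental peak, beside 7.76%, 30.5%, 57.6% and 26.9% of all genes. All 22 were near a peak in 3 of the 4 target lists (21 in wild-type replicate 2). Of all genes, 61.2% and 43% were near a peak in the wild-type and 67.6% and 49.2% in the FLAG-TET2 lists. By class, 6 were near a shared, 3 near an antibody-only and 20 near a resin-only region (14.2%, 19.2% and 51.9% of all genes). The highest fold near Lin28a, an RNA-binding inhibitor of let-7 processing, was 36.0 in parental replicate 1 and 27.9 in parental replicate 2, and that near Nanog was 32.5 and 19.6, with no knockout peak near either. Near Pou5f1, which encodes OCT4, the highest folds were 17.4 and 8.79 in the parental lists and 6.27 in knockout replicate 2. Zscan10 had 34.3 and 25.8 in the parental lists and 5.82 in knockout replicate 2. Of 22 naive-state genes and targets of the culture signals, 0, 11, 20 and 9 were near a peak, set against the same shares. Klf2 (chr8:72318926-72320899), a transcription factor of the naive state, had a shared region over its start, with 10.9 and 6.25 in the parental lists and 4.91 in knockout replicate 2.

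Of 21 genes of the DNA methylation machinery, 4, 11, 20 and 9 were near a peak of the 4 control lists in replicate order, beside 7.76%, 30.5%, 57.6% and 26.9% of all genes. Dnmt3a, a de novo methyltransferase, had a resin-only region over a start site (chr12:3806059-3807505) with folds of 37.2 and 21.8. Tet3 had a shared region at a gene end (chr6:83456368-83456783) with 7.04 and 10.3 in the knockout lists and 4.17 in parental replicate 1. Uhrf2 and Mbd3 had shared regions with 8.90 and 11.9, and with 4.76 and 8.56, in the knockout lists, and with 7.98 and 10.5 in parental replicate 1. At the Tet2 gene (chr3:133463677-133545136) the control lists had 0 and 1 knockout peaks and 7 and 0 parental peaks, against 8 and 4 in the wild-type and 13 and 10 in the FLAG-TET2 lists. The single knockout peak, of fold 8.08, lay in the only shared region there (chr3:133524724-133524951), 19.4 kb from the start. The highest parental fold, 15.4, lay 0.215 kb from the start. Parental replicate 2 had no peak at the gene.

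At the deposited lengths the remaining lists showed no single order of the 4 control lists, and are set against 7.76%, 30.5%, 57.6% and 26.9% of all genes. Of 28 lineage transcription factors 3, 12, 12 and 3 were near a peak, and of 17 imprinted genes 2, 10, 10 and 1. Igf2r (chr17:12769061-12770129), an imprinted receptor that clears IGF2, had a shared region with folds of 18.5 and 31.6 in the knockout lists and 5.04 in parental replicate 1. Grb10, an imprinted adaptor of insulin signalling, had a resin-only region (chr11:12025719-12026342) with 79.1 and 48.0, and Dlk1 an antibody-only region with 10.6 and 19.6. Of 16 fibroblast genes 2, 8, 6 and 3 and of 18 hematopoietic genes 5, 7, 9 and 3 were near a peak. Formative and primed genes (19) had 5, 11, 14 and 7, and immediate early genes (20) 3, 10, 16 and 9. Cell cycle regulators (29) had 4, 14, 28 and 21, higher in both parental lists. Among leading peaks their counts were 4, 4, 0 and 0, beside 7.76%, 7.65%, 6.02% and 6.04% of all genes. Lineage factors then had 3, 5, 1 and 1, imprinted genes 2, 2, 1 and 1, and fibroblast genes 2, 3, 0 and 0. Hematopoietic genes had 5, 4, 1 and 2, and formative and primed genes 5, 5, 2 and 2. In these lists both knockout counts were above both parental counts, though all counts were small. Immediate early genes had 3, 2, 2 and 2.

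Genes for transfer RNA, short genes read by RNA polymerase III, took a larger share of knockout than of parental peaks. Of 408 tRNA genes, 56 (13.7%) and 202 (49.5%) lay under a knockout peak, and 71 (17.4%) and 20 (4.9%) under a parental peak. The wild-type lists covered 209 and 162 and the FLAG-TET2 lists 163 and 70, so counts of genes overlapped by reagent. By class, 95 lay under shared, 107 under antibody-only and 11 under resin-only regions, and 2.28%, 1.32% and 0.0337% of these regions overlapped a tRNA gene. As a share of peaks, 2.48% and 1.64% of knockout and 0.192% and 0.198% of parental peaks overlapped a tRNA gene, against 0.506% and 0.824% of wild-type and 0.241% and 0.234% of FLAG-TET2 peaks. In these shares neither the controls nor the reagents overlapped. The difference was 1.87 points over the controls (p = 0.333, exact permutation) and 1.15 points over all 8 lists (exact permutation p = 0.0556, adjusted 0.0778). Among leading peaks 56 and 78 tRNA genes were covered by the knockout lists and 0 and 0 by the parental lists. Genes for small nucleolar RNA, which lie mostly in introns of other genes, had higher counts in the parental lists at the deposited lengths: 0, 3, 91 and 39 of 1340 were under a peak. By a looser measure, 7.76%, 30.5%, 57.6% and 26.9% of protein-coding genes were nearest to a peak within 10 kb. By class, 0.461% of shared, 0% of antibody-only and 0.147% of resin-only regions overlapped a gene for small nucleolar RNA. Among leading peaks the difference in counts was lost, with 0, 0, 0 and 0. Near-identical copies of both kinds of gene share reads, so single copies are not named.

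Promoter windows under antibody-only and resin-only regions had like mean CpG content and differed in some motifs. Of 21263 windows, 2311 (10.9%) overlapped a shared region, 1208 (5.68%) an antibody-only and 4403 (20.7%) a resin-only region. Mean CpG per 100 bases was 9.05, 8.10 and 8.34, against 5.13 over all windows. Under the 2259 leading peaks of each list it was 9.31 and 8.91 in the knockout and 7.23 and 7.42 in the parental lists, so the likeness held only at the deposited lengths. The letters CACGTG, which read the same on both strands, were in 16.7%, 20.8% and 8.18% of these windows, and in 7.84% of all windows. By list they were in 28.4% and 19.4% of windows under knockout peaks, and in 11.1% and 11.1% under parental peaks. Wild-type lists had 12.4% and 14.6%, and FLAG-TET2 lists 10.9% and 11.9%. The difference was 12.8 points over the controls (p = 0.333, exact permutation) and 7.46 points over the 8 lists (exact permutation p = 0.0556, adjusted 0.0778), with no overlap in either. The windows printed above were picked for holding it: Sycp3 and Hormad1 had 2 matches each and Ddx4 and Mael 1 each. Of the 13 germline genes near a peak of both knockout lists, 12 had a window and 10 of these held CACGTG, while Dazl and Sycp2 did not. This is a count of genes picked by their knockout peaks, some with several windows, and is not comparable with the shares of windows above. Of the other germline genes, Asz1, Tex101 and Dpep3 had a window without CACGTG, and Rhox9 and Tex11 had no window. A link between motif and peaks in this list was not tested.

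CCGGAA, searched on both strands, was in 33.3% of windows under shared, 20.9% under antibody-only and 34.9% under resin-only regions (18.7% of all windows). ATGGCG, also on both strands, was in 18.3%, 10.1% and 21.1% (10.9% of all). CCAAT and GGGCGG differed little between the classes (35.4% to 38.6% and 70.9% to 71.9%). TGCGCA was in 21.7%, 16.9% and 14.6%, TGACGT in 13.8%, 9.85% and 13.7%, and TATAAA in 6.45%, 5.63% and 5.41%. These shares are descriptions, and windows of neighbouring starts overlap.

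The leading parental regions carried the letters CAGCACC, the left part of the longer motif printed above, in more windows. Of the 32 windows under the 500 leading regions of both parental lists, 12 (37.5%) held it on either strand, against 7.24% of all windows and 4.88% of the 123 windows under the 500 leading regions of both knockout lists. The longer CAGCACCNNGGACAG was in 10 of all 21263 windows. Of these 10, 8 were under a parental peak (Osbp2, Fbll1, Ogdhl, Lhx3, Fam163b, Hrh3, Sptbn4 and Ttc9b), and the other 2 were windows of Lca5 with no control peak. Each parental list covered 8 of the 10, where 6505 and 1816 of all windows were under a peak. The knockout lists covered 0 and 2 (682 and 3195 of all windows). Target lists covered some too: wild type 5 and 5 (9380 and 5706 of all windows), and FLAG-TET2 8 and 8 (9872 and 5952). Fbll1, a fibrillarin-like gene, had folds of 80.9 and 41.1 in the parental lists. Ttc9b had 52.0 and 35.1, and Fam163b had 44.1 and 22.6 with 5.73 in knockout replicate 2. Both motifs were chosen after the leading genes had been seen.

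The sex chromosomes differed from the autosomes. X held 9 of 3689 shared regions (0.244%), 1.23% of antibody-only and 1.36% of resin-only regions, where 4.41% of protein-coding genes are on X. Y held 33 regions, of which 26 lay within 75.5 kb (chrY:90737423-90812963), with Gm52481 as nearest gene. Of these 26, 17 were shared. This stretch held 1 and 20 knockout and 31 and 17 parental peaks, with highest folds of 3.15, 4.95, 10.7 and 6.06.

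Some genes were the nearest gene of many separate regions, most of them resin-only. Pcdh9, a protocadherin of neurons, was nearest to 56 control regions, of which 54 were resin-only and 47 held parental replicate 1 alone. Tenm3, a teneurin that guides neuronal wiring, had 49 regions (41 resin-only, 35 of parental replicate 1 alone). Pcdh17 had 39, Pcdh20 38 and the adhesion gene Cadm2 37, of which 34, 32 and 26 held parental replicate 1 alone. At most 1 region of each was shared, and none was at a gene end except 1 at Cadm2. Most of these regions lay outside the gene: the spans of Pcdh9, Tenm3, Pcdh17, Pcdh20 and Cadm2 held 11, 20, 2, 0 and 15. In the same order these were 1.25, 1.54, 2.13, 0 and 1.55 regions per 100 kb, below the 2.51 over all gene spans.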

How the data were processed

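Each deposited list holds the peaks of 1 library. Per the submitters' processing notes the tools include MACS2, Bowtie2, Trimmomatic, DiffBind and DESeq2, with the build mm10 and no versions or roles. Names of deposited peaks include q10, rmDUP, rmChrM and IgG. The authors' columns used here are the score, the fold enrichment (a ratio on a linear scale), −log10 of p, −log10 of q and the summit offset. Neither read counts nor depth are given in the sources used here. These values were used to rank or filter peaks within a list.

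Peaks on 21 chromosomes were kept, which left out 2, 6, 31 and 10 peaks of the 4 control lists, in the order knockout then parental. Regions, gene distances and motifs were computed in Python 3.11.15 with pandas 2.3.3, numpy 2.4.6 and scipy 1.17.1, in scripts tested on simulated data. Gene positions, starts and promoter windows came from RefSeq tables of GRCm38.p6. For gene lists and the shares of all genes, a region or peak was given to the nearest protein-coding gene within 10 kb. Leading regions were named after the nearest gene at any distance. Of 514 list symbols 513 matched. Libraries were compared by exact permutation, two-sided.

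Members and gene lists were chosen with earlier results of these data known. Named genes are the 10 leading regions of all 4 lists and of each reagent's 2 lists alone, by mean percentile of fold, up to 4 leading members of each list near a shared region, the 5 genes with most regions, and Tet2. Other named genes, the tRNA, snoRNA and REST-element measures, the comparisons of all 8 lists and the per-list contrasts of gene lists, motifs and summits were chosen after seeing the data. Alternatives were a stricter threshold, 200 bp summit windows, lists shortened to 2259 peaks, other distances, means, a replicate block and leaving out each library. A few regions chosen by this rule are not reported here.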

Additional observations from a re-analysis of the deposited data

How the results depend on the processing

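Peaks at −log10 q of at least 5 gave 2239 shared regions, with 73.3%, 32.0% and 29.2% of shared, antibody-only and resin-only regions at gene ends, and 69.9%, 14.6% and 13.4% in all 4 target lists. With 200 bp summit windows the gene-end shares were 69.2%, 34.7% and 32.2%, and the shares in all 4 target lists 40.0%, 11.02% and 5.47%. With every control list shortened to 2259 leading peaks there were 29 shared, 2820 antibody-only and 2393 resin-only regions, with 58.6%, 45.5% and 17.3% at gene ends and 82.8%, 25.9% and 8.52% in all 4 target lists. The log2 fold of shared minus one-reagent peaks was then reversed, at 0.24. The 159 list genes near a shared region became 3. A gene-end distance of 0.5 kb gave 66.1%, 23.8% and 24.0%, and 5 kb gave 82.0%, 45.3% and 42.8%.

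Leaving out each control library in turn gave 678 to 3688 shared, 1569 to 10527 antibody-only and 8936 to 35920 resin-only regions. Gene-end shares ranged from 71.6% to 74.3% (shared), 29.7% to 39.7% (antibody-only) and 29.9% to 37.6% (resin-only). Shares in all 4 target lists ranged from 61.2% to 77.4%, 10.5% to 22.9% and 12.01% to 16.7%, and list genes near a shared region from 20 to 159. Of the recomputed counts for single gene lists near shared regions, 95 stayed within 1.5 times and 57 did not. Shared regions exceeded both other classes in gene-end share under every alternative named here. The contrasts between knockout and parental lists kept their direction under every alternative run, except that the ribosomal contrast was lost in shortened lists (-0.63 points, exact permutation p = 1.0, groups overlapping). No design here could pass 0.05.

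Replicate numbers are shared across groups, but the labels do not say that they mark a common batch. With the replicate block the difference in peak number stayed at 1.90 (exact permutation p = 1.0) and that in gene-end share at -8.21 (p = 0.5, the smallest of 2 pairs). With the numbers crossed, since replicate 1 was the short list of the knockout and the long list of the parental group, p was 0.5 for both, and neither fit made a call. Depth is unknown, so differences that move with list length cannot be told apart from depth.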
